A study of Oryza sativa Japonica Group with 20 samples.

Results

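The genes described here are 150 rice genes whose intensity rose and stayed up in both leaf and root while whole seedlings dried. They were chosen by their own values on 16 of the 20 arrays. A gene had to have a log2 change from 0 h above 1 at 2, 6 and 12 h in leaf and again in root, after intensities under 200 had been raised to 200. Of 26785 genes that could be chosen, 1237 met this in leaf and 756 in root. The 327 that met it in both were 26.4% of the leaf list, 43.3% of the root list and 1.22% of all genes that could be chosen, and the 150 with the largest minimum of the 6 changes were taken. Of the 27609 genes tested on the array, 820 had identifiers of other kinds, and 4 genes that the study names one by one were left out beforehand.

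The plants were 14-day-old seedlings of the japonica cultivar Nakdong, not transgenic, grown in soil under greenhouse conditions. They were lifted from the soil, kept in water for a day, blotted and then dried in a chamber at 32 °C and 50% humidity under constant light, with the roots wrapped in tissue and foil. Leaves and roots were taken apart from the same kind of seedling at 0, 0.5, 2, 6 and 12 h, which gave 10 groups with 2 arrays each. The labels call the 2 arrays of a group biological replicates without saying how many plants each held, and the 0 h samples were taken at the onset of drying rather than from undried plants kept for the same hours. Each array carried Cy3-labelled RNA of 1 sample on probes near the 3′ ends of genes, and the deposited value of a gene is an intensity on a linear scale.

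Water loss is sensed in plant cells through falling turgor and rising osmotic strain, and much of the response runs through the hormone abscisic acid, whose receptors release kinases that switch on transcription factors binding the abscisic acid response element. A second, largely hormone-independent route works through factors that bind the dehydration response element. Both routes are known to raise genes for late embryogenesis abundant proteins, including dehydrins, which shield membranes and proteins in drying cells, and genes for making compatible solutes, for detoxifying reactive oxygen and for damping the signal itself. The 4 genes left out beforehand are rab21 (AK121952), which encodes such a dehydrin, dip1 (AK070197), a marker of water deficit, ADF (Os03g0820500), a putative actin depolymerizing factor, and AK102039, an AWPM-19-like protein. With the same calculation rab21 had changes of 1.24, 2.23 and 2.49 at 2, 6 and 12 h in leaf and 2.24, 2.61 and 2.66 in root, so that it met the condition in both tissues with a minimum of 1.24, below the smallest minimum of a member. ADF had a minimum of 2.30 and would have ranked 46, AK102039 had one of 1.41 and would have ranked 165, and dip1 did not meet the condition, with root changes of 0.37, 0.30 and 0.21. The identifiers of the 150 genes are not paired with names or products in the sources used here, and none matched the reference gene table, so the genes are described by their values and no function is given to any of them. For the same reason neither sequences nor promoter motifs are shown.

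The arrays as a set had medians over all genes between 1954 and 2743. The feature made of random sequences, which shows the level without a matching transcript, lay between 115 and 228 on 18 arrays, but at 362 on leaf 0.5 h replicate 1 and at 340 on root 0.5 h replicate 2. Results at 0.5 h are therefore given with and without these 2 arrays. The tissues fitted their labels: 7 of 7 leaf genes that the study names (rbcS, the small subunit of Rubisco, and 6 chlorophyll a/b binding proteins) were higher on both leaf arrays than on both root arrays at 0 h. Their values on single arrays of 0 h ran from 16165 to 58566 in leaf and from 84.3 to 1415 in root. At 12 h these genes lay between 847 and 12891 in root and between 7630 and 27288 in leaf. 0 of the 7 were among the 150, and the part of a changing make-up of the tissue in their course was not tested.

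Of the 150 genes, 132 carried cDNA identifiers (AK) and 18 carried locus identifiers (Os). Locus identifiers made up 12% of the members, 12.2% of the 327 genes that met the condition and 25.9% of the genes that could be chosen. The 18 loci lay on 8 chromosomes by their identifiers, with 4 each on chromosomes 3 and 7, 3 on chromosome 12, 2 each on chromosomes 4 and 5, and 1 each on chromosomes 2, 8 and 9. Each of the 150 genes was measured with 10 probes. Identifiers of different cDNAs can stand for the same gene, which was not checked here.

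The rule favours genes that start low and end bright, and the members did so in both tissues. Their median intensity in leaf was 703 and 995 on the 2 arrays of 0 h, 910 and 1421 after 0.5 h, 7148 and 6734 after 2 h, 8304 and 7763 after 6 h, and 9440 and 9833 after 12 h. In root it was 840 and 893 at 0 h, 1933 and 1847 after 0.5 h, 6763 and 8212 after 2 h, 6980 and 7355 after 6 h, and 7506 and 9926 after 12 h. Most of the climb in the median thus lay between 0.5 and 2 h in both tissues, and all 6 arrays from 2 h on stood above all 4 earlier ones in each tissue. The brightness of different genes cannot be compared with each other on this array, so only the course of the median is read. Because leaves and roots were measured as bulk tissue, more cells that contain a transcript and more transcript in each cell cannot be told apart.

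**Figure D1:**
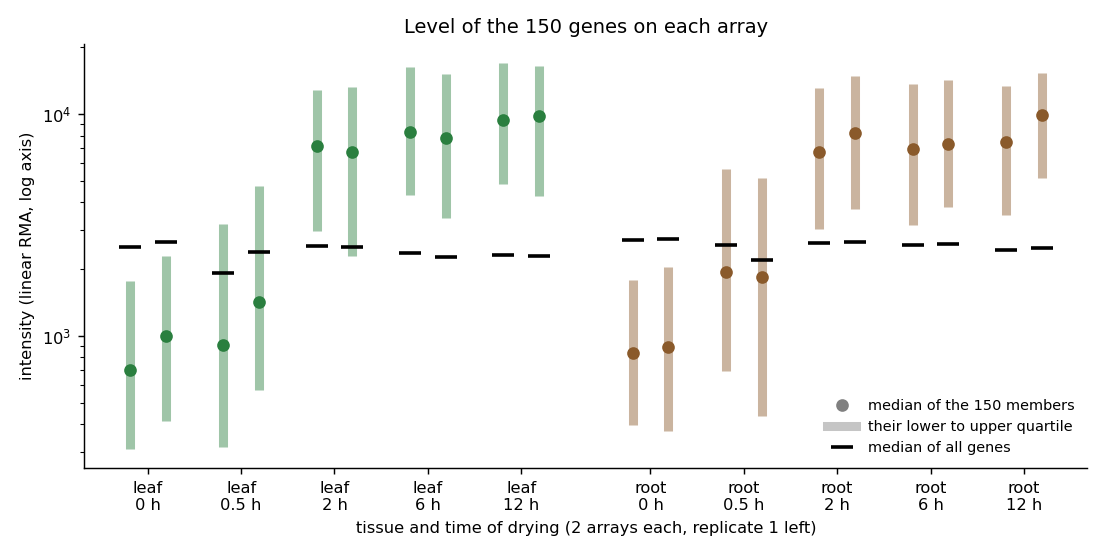
Intensity on a log axis (y) on each of the 20 arrays, grouped by tissue and time of drying (x), with points for the median of the 150 members, bars from their lower to their upper quartile and black dashes for the median of all genes. The member median climbs from 703 to 995 in leaf and 840 to 893 in root at 0 h to between 7506 and 9926 at 12 h, while the median of all genes stays near its level.

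The rule fixed that all changes from 2 h on are above 1, so the sizes below are a description. In leaf the median log2 change of the members was 2.45 after 2 h, 2.97 after 6 h and 3.16 after 12 h, where the median over all genes that could be chosen was 0.04, 0.00 and −0.01. In root it was 2.67, 2.73 and 2.86, where that of all genes was 0.00 at each time. As folds, the leaf medians were 5.47, 7.81 and 8.95 and the root medians 6.37, 6.65 and 7.24. The leaf median thus went on rising after 2 h by more than the root median did. The spread among members was wide, with an SD over genes of 1.06 to 1.17 in leaf and 1.12 to 1.14 in root, and with changes of up to 6.99 in leaf and 6.63 in root at these times. The minimum of the 6 changes ran from 1.51 to 6.19 with a median of 2.04. It was above 2 in 80 members, above 3 in 20 and above 4 in 7. At the limit the values were close together: AK065697, the last gene taken, had a minimum of 1.5148 and AK102040, the first one left out, 1.5109.

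The 2 h values most often set the minimum, in leaf for 57 members and in root for 32. The 6 h values set it for 13 in leaf and 28 in root, and the 12 h values for 8 and 12. On single arrays the same values were compared as a description, and since the rule had chosen the genes on these arrays nothing is drawn from the shares. Both arrays of 2 h lay above both arrays of 0 h for 149 members in leaf, where 30.6% of all genes did so, and for 150 in root, where 23.1% did. At 6 h this held for 150 in leaf (32.9% of all genes) and 150 in root (29.3%), and at 12 h for 150 in leaf (23.4%) and 150 in root (26.3%). The exception was AK065697 in leaf, with 2840 and 414 at 0 h and 6200 and 1733 at 2 h, named here after its values were seen.

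**Figure D2:**
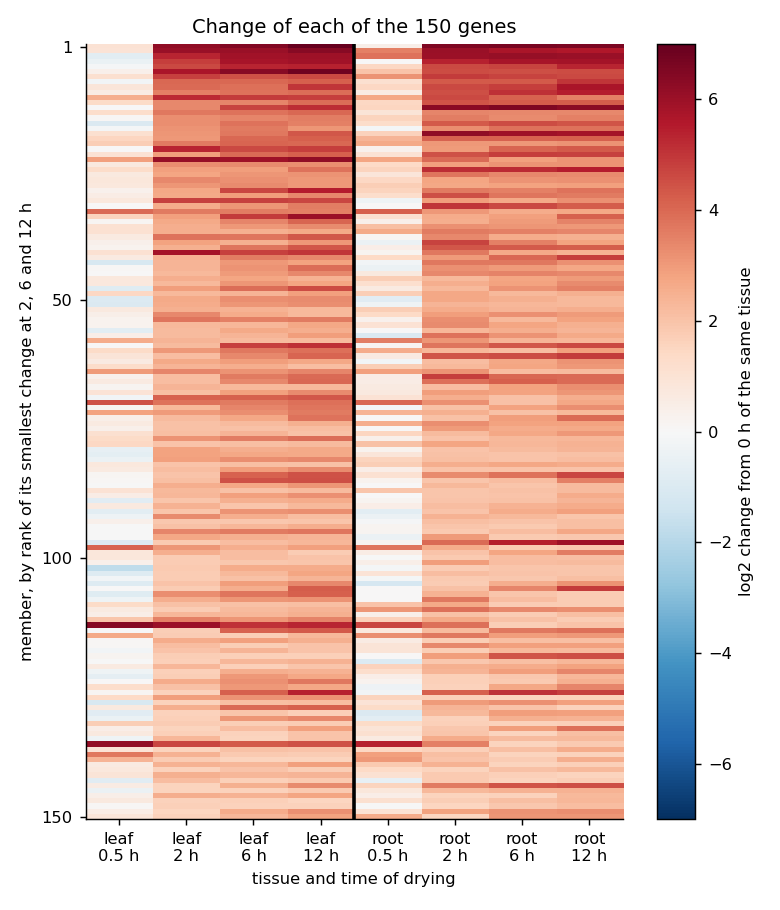
Log2 change from 0 h of the same tissue (colour, red for higher and blue for lower) for each of the 150 members (rows, ordered by the smallest of their changes at 2, 6 and 12 h) at 4 times in leaf and in root (columns). All cells at 2, 6 and 12 h are above 1 by the rule, while the 0.5 h columns are pale with a median of 0.50 in leaf and 0.90 in root, apart from a few dark rows.

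The 2 members with the largest minimum are given as the extremes of the list, not as typical members. Their minima were 6.19 and 5.58, where the median over members was 2.04. AK062588 had intensities of 176 and 128 at 0 h in leaf, 315 and 529 after 0.5 h, 16769 and 12767 after 2 h, 20258 and 16022 after 6 h, and 25966 and 24776 after 12 h. In root the same gene had 331 and 119 at 0 h, 262 and 437 after 0.5 h, 22131 and 25230 after 2 h, 28648 and 22703 after 6 h, and 24651 and 25543 after 12 h. It was near the random feature at 0 h, still low at 0.5 h and within reach of its final level at 2 h in both tissues. Since both leaf arrays and root replicate 2 were under 200 at 0 h, its changes are lower bounds, at least 6.19 at 2 h and at least 6.99 at 12 h in leaf, and at least 6.52, 6.63 and 6.61 in root.

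AK063716 had 232 and 319 at 0 h in leaf, 504 and 561 after 0.5 h, 21538 and 15058 after 2 h, 20417 and 16078 after 6 h, and 21804 and 22417 after 12 h. In root it had 215 and 159 at 0 h, 1549 and 3733 after 0.5 h, 12792 and 15105 after 2 h, 11739 and 10269 after 6 h, and 8954 and 11011 after 12 h. The leaf level stayed level from 2 h while the root level was highest at 2 h, and at 0.5 h the root arrays were already well above the leaf arrays. Its log2 change from 0 to 0.5 h came to 0.97 in leaf but to at least 3.54 in root, where 1 of the arrays of 0 h was under 200.

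**Figure D3:**
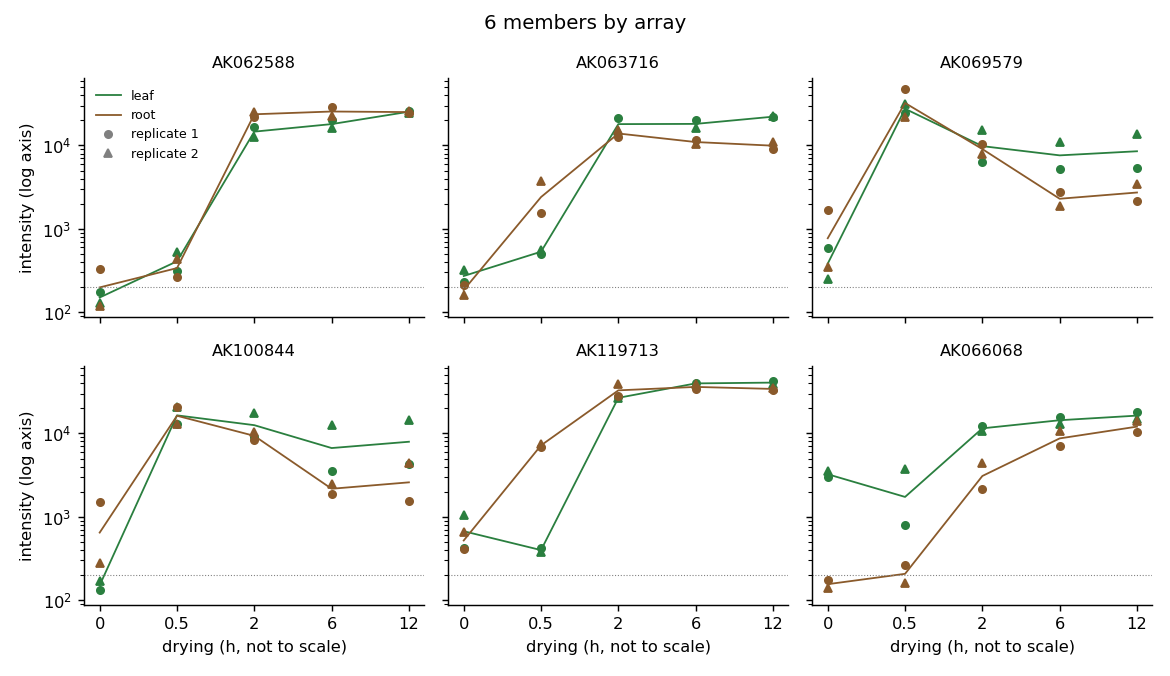
Intensity on a log axis (y) against time of drying (x, not to scale) for 6 members in leaf (green) and root (brown), with circles for replicate 1, triangles for replicate 2, lines through the mean of the log2 values and a dotted line at 200. AK062588 and AK063716 climb between 0.5 and 2 h in leaf, AK069579 and AK100844 are highest at 0.5 h, AK119713 is up at 0.5 h in root but not in leaf, and AK066068 starts low in root and nears its leaf level by 12 h.

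Low starting levels limit some of these sizes. Both 0 h arrays were under 200 for 13 members in leaf and for 9 in root, 18 members in either tissue and 4 in both, and a change of such a gene is only a lower bound. A further 19 members in leaf and 11 in root had 1 of the 2 arrays under 200, which makes the change a lower bound too. AK106302, named here because it had the largest rise from 2 to 12 h in root, was one of the 4, with 45.6 and 64.4 in leaf and 66.2 and 101 in root at 0 h. At 12 h it reached 5337 and 2607 in leaf and 3873 and 9124 in root, so that its change was at least 4.22 in leaf and at least 4.89 in root.

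After 2 h the members parted. In leaf the largest of the 3 changes fell at 12 h for 91 members, at 2 h for 33 and at 6 h for 26. In root it fell at 12 h for 68, at 2 h for 63 and at 6 h for 19. The time was the same in both tissues for 69 members, 40 of them with 12 h, 21 with 2 h and 8 with 6 h, and the most frequent mixed course was 12 h in leaf with 2 h in root, in 41 members. The means went up from 2 to 6 and from 6 to 12 h for 77 members in leaf and 58 in root, and down at both steps for 11 in leaf and 31 in root. On single arrays, both leaf arrays of 12 h lay above both of 2 h for 80 members (15.9% of all genes) and below both for 12 (33.2% of all genes). In root they lay above for 53 (16.4% of all genes) and below for 35 (30.4% of all genes). All these times were read by the rule, so nothing is drawn from the shares.

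The late courses can be shown with single genes, chosen after their values were seen. In leaf AK107930 had the largest rise from 2 to 12 h, 3.76 on the log2 scale, with 359 and 189 at 0 h, 1840 and 372 after 2 h, 7299 and 3363 after 6 h, and 12523 and 10022 after 12 h. In root it was already at 7651 and 10720 by 2 h and at 16003 and 12735 by 12 h, so that its leaf course lagged its root course. Os12g0529200 had the largest fall in leaf over the same interval, a log2 difference of −1.18, from 6027 and 4097 at 2 h to 1937 and 2473 at 12 h, which was still above the 350 and 704 of 0 h. In root Os04g0204100 had a log2 difference of 1.99 between 2 and 12 h, from 2883 and 2673 to 8292 and 14635. AK068257 had one of −1.94 in root over that interval, from 10282 and 10405 at 2 h to 3280 and 2212 at 12 h, but did not return to the 390 and 380 of 0 h. In each of these 4 cases the 2 arrays of 12 h lay apart from the 2 arrays of 2 h.

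Leaf and root did not rise by equal amounts. The change was larger in root for 81 members at 2 h, 66 at 6 h and 67 at 12 h. Differences of more than 1 on the log2 scale became more frequent on the leaf side with time. At 2 h root exceeded leaf by that much in 33 members and leaf exceeded root in 12, at 6 h in 15 and 26, and at 12 h in 11 and 29. A difference of this size at all 3 times was found for 6 members with the larger change in root and for 10 with the larger change in leaf. Over the 150 genes the leaf and root changes correlated with Pearson's r of 0.56 at 2 h, 0.55 at 6 h and 0.59 at 12 h. These are descriptions over genes of the same arrays, chosen for being high in both tissues, and genes are not replicates.

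The extremes at 12 h were AK066068 and AK100844, chosen after their values were seen. AK066068 was bright in leaf from the start, with 2999 and 3498 at 0 h, 12266 and 10781 after 2 h, and 17820 and 14980 after 12 h. In root it had 173 and 140 at 0 h, 266 and 162 after 0.5 h, 2147 and 4438 after 2 h, 7126 and 10647 after 6 h, and 10315 and 14088 after 12 h. Its root level thus approached its leaf level, with a log2 change at 12 h of 2.34 in leaf and of at least 5.91 in root. AK100844 went the other way, with a change at 12 h of at least 5.31 in leaf and of 2.00 in root. The log2 difference between root and leaf levels had an SD over all members of 1.20 at 0 h and 1.305 after 0.5 h. It was 1.11 after 2 h, 1.04 after 6 h and 0.99 after 12 h. Among members it was thus wider at 0.5 h than at 0 h before it narrowed. Over all genes it went from 1.35 at 0 h to 1.26 after 0.5 h and 1.09 at 12 h.

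The arrays of 0.5 h were the only ones that the rule did not read. The change at 0.5 h still shares the 0 h arrays with the rule, so it is described without a test. Its median was 0.50 in leaf and 0.90 in root, where that of all genes was −0.12 and −0.23. A change above 1 was found in leaf for 38 members, 25.3% of them against 3.49% of all genes, and in root for 70, 46.7% against 4.85% of all genes. It was above 1 in both tissues for 33 members (0.866% of all genes), in root alone for 37, in leaf alone for 5 and in neither for 75. The change was below 0 for 40 members in leaf and 25 in root, and below −1 for 4 and 3. Shares over all genes were not taken, here or below, for root alone, leaf alone, neither tissue or these falls. Nothing is drawn from those counts. By these values 75 of the 150 genes had no doubling at 0.5 h in either tissue, a count that holds for this processing only. After quantile normalization of all arrays, a change above 1 was found for 49 members in leaf and 84 in root. With each array centred on its median the counts were 48 and 80.

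The size of the gap between leaf and root at 0.5 h depended on 1 array. The 2 leaf arrays of 0.5 h were farther apart than those of any other group, with a median absolute log2 distance over members of 1.13 against 0.22 to 0.69 in the others, and replicate 1 was the dimmer one. Without leaf 0.5 h replicate 1 the leaf count was 64 in place of 38. Without the 2 arrays that had a raised random feature, a change above 1 was found in both tissues for 43 members, in leaf alone for 21, in root alone for 30 and in neither for 56. The medians were then 0.81 in leaf and 0.97 in root, and the shares of all genes above 1 were 8.55% in leaf, 3.01% in root and 0.806% in both. The part of the raised feature in the gap was not tested.

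On single arrays, both arrays of 0.5 h lay above both of 0 h for 56 members in leaf (14% of all genes), for 85 in root (19.5% of all genes) and for 44 in both tissues (5.9% of all genes). Opposite directions, with the arrays apart from 0 h in each tissue, were found for 4 members. Leaf was lower and root higher for 3 of them (0.56% of all genes), and leaf was higher and root lower for 1 (1.69% of all genes).

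The members can be described by whether they were up early. The 33 members above 1 in both tissues at 0.5 h had median changes of 1.55 at 0.5 h, 2.93 at 2 h and 3.50 at 12 h in leaf and of 2.39, 3.03 and 2.73 in root. The other 117 had medians of 0.21, 2.37 and 3.10 in leaf and 0.50, 2.56 and 2.86 in root. Within the 33, 8 members had their highest change at 0.5 h in both tissues, and the count was 8 without the 2 arrays with a raised random feature too. Their median change in leaf was 4.03 after 0.5 h, 3.35 after 2 h, 3.05 after 6 h and 3.20 after 12 h. In root it was 3.86, 3.06, 1.78 and 2.17. A fall after 0.5 h in both tissues was fixed by the choice of these 8 members. The fall of the median was deeper in root, and all of them stayed above 1 by the rule.

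**Figure D4:**
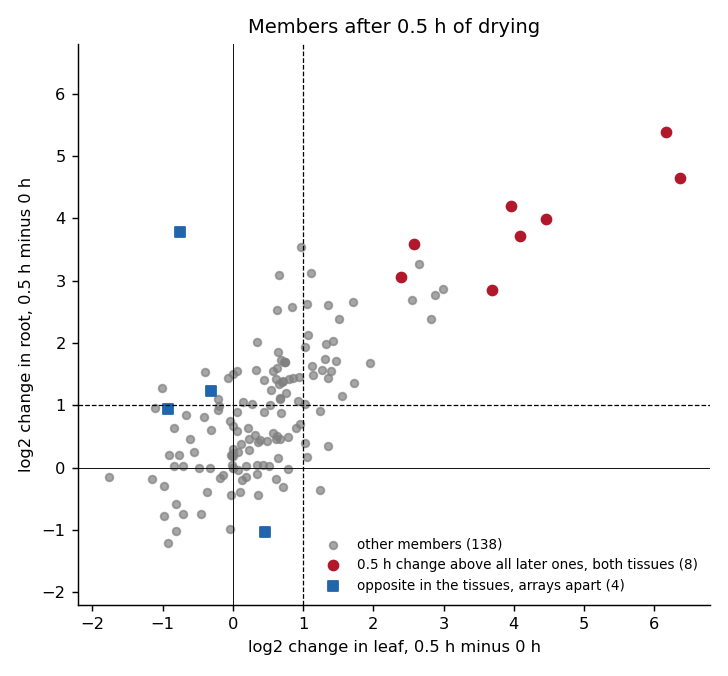
Log2 change from 0 to 0.5 h in leaf (x) and in root (y) for the 150 members, with red circles for the 8 whose 0.5 h change was above all later ones in both tissues, blue squares for the 4 that moved in opposite directions with arrays apart, and dashed lines at 1. The red points lie between 2.39 and 6.36 in leaf and between 2.85 and 5.39 in root, and most grey points lie below 1 in leaf.

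The 2 strongest of these early genes, chosen after their values were seen by the smaller of their 2 changes at 0.5 h, were AK069579 and AK100844. AK069579 had 593 and 248 at 0 h in leaf, 24200 and 31276 after 0.5 h, 6328 and 15200 after 2 h, 5243 and 11017 after 6 h, and 5298 and 13679 after 12 h. In root it had 1702 and 350 at 0 h, 47125 and 22082 after 0.5 h, 10338 and 7903 after 2 h, 2783 and 1891 after 6 h, and 2162 and 3437 after 12 h. The 0.5 h arrays were the brightest in both tissues and did not overlap any later array. Its log2 change was 6.17 at 0.5 h and 4.47 at 12 h in leaf, and 5.39 and 1.82 in root.

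AK100844 had 134 and 170 at 0 h in leaf, 13021 and 20806 after 0.5 h, 8964 and 17572 after 2 h, 3567 and 12487 after 6 h, and 4355 and 14482 after 12 h. In root it had 1485 and 282 at 0 h, 20487 and 12928 after 0.5 h, 8427 and 10356 after 2 h, 1880 and 2503 after 6 h, and 1539 and 4359 after 12 h. In leaf replicate 2 was brighter than replicate 1 at each time, and the arrays of 0.5 h overlapped those of 2 h and 12 h. In root the arrays of 0.5 h stood above all others, and at 12 h replicate 1 lay just above the brighter array of 0 h while replicate 2 lay further above it.

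Root and leaf were compared directly at 0.5 h with limma, on arrays that the rule had not read. The fit shared its estimate of spread with the other groups. With the threshold set at an adjusted p of 0.05 and at a log2 difference of 1 either way, 22 of the 150 members were higher in root, where 9.34% of all 27609 genes were, and 5 were lower in root, where 7.33% of all genes were. These are 14.7% and 3.33% of the members. The median difference over the members was 0.42. The remaining 123 were not called, which does not show that their levels were equal. The spread behind these p-values, and behind the SEs given below, comes mostly from arrays that the rule read. The SEs are thus not the spread of the 0.5 h arrays alone. Over all genes the median absolute log2 distance between arrays of 0.5 h was 0.744 in leaf and 0.588 in root. In the other groups it was 0.236 to 0.441, so the shared spread can be too small for 0.5 h. With only the 4 arrays of 0.5 h in the fit, 7 members were higher in root (1.83% of all genes) and 1 was lower (2.5% of all genes). Both root arrays stood above both leaf arrays for all 22 called higher, and the smallest called difference was 1.10.

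The arrays of 0.5 h weighed on these counts. Without leaf 0.5 h replicate 2, 42 members were higher in root (14.4% of all genes) and 4 lower (5.97% of all genes). When leaf 0.5 h replicate 1 was dropped instead, 17 were higher (5.68% of all genes) and 12 lower (8% of the members, and 2868 of all 27609 genes). Without both arrays that had a raised random feature, 21 members (14%) were higher, against 8.42% of all genes, and 11 (7.33%) were lower, against 8.62% of all genes. Of the 22 called higher, 18 were called again in that setting and all 22 kept their sign, and all 5 called lower were called again. With 1 array left out in turn, 12 of the 22 and 2 of the 5 were called each time.

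**Figure D5:**
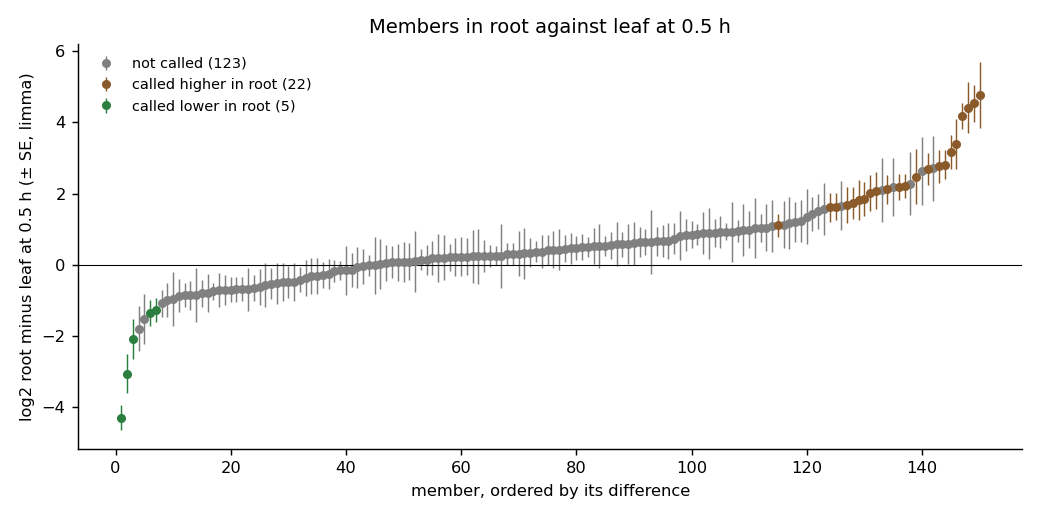
Log2 difference of root minus leaf at 0.5 h with its standard error from limma (y) for the 150 members in order of size (x), coloured by call at the same threshold. The 22 members called higher in root lie between 1.10 and 4.76 and the 5 called lower between −4.30 and −1.28, with 123 not called.

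Among those higher in root, AK066150 and AK064074 had the largest differences on all arrays and AK119713 the smallest adjusted p. The order depended on dim leaf values, since without the 2 arrays that had a raised random feature the differences were 3.68, 3.95 and 4.19, and with intensities under 200 raised to 200 they were 3.43, 3.89 and 4.17. AK066150 had 31.7 and 497 in leaf and 6356 and 1821 in root at 0.5 h, a log2 difference of 4.76 ± 0.93 (SE, 2 arrays each, limma adjusted p = 0.00265). Its leaf replicate 1 lay under the random feature of that array. At 0 h it had already been brighter in root, with 1049 and 1720 against 132 and 57.1 in leaf, and at 12 h it was at 3603 and 4639 in root and 4536 and 2934 in leaf.

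AK064074 had 81.4 and 325 in leaf and 5032 and 2823 in root at 0.5 h, a difference of 4.53 ± 0.52 (SE, 2 arrays each, limma adjusted p = 4.5e-05), and its leaf replicate 1 was likewise under the random feature. It was also brighter in root at 0 h, with 721 and 1193 against 115 and 168. From 6 h on the tissues overlapped or nearly met, at 19397 and 13654 in leaf and 21543 and 21181 in root at 6 h and at 23154 and 21808 in leaf and 23254 and 20271 in root at 12 h.

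AK119713 differed from both in having like levels at 0 h, 426 and 1060 in leaf and 409 and 662 in root. At 0.5 h it had 421 and 378 in leaf and 6896 and 7493 in root, a difference of 4.17 ± 0.36 (SE, 2 arrays each, limma adjusted p = 4.97e-06). At 2 h leaf had 27146 and 26265 and root 27892 and 38608, and at 12 h leaf had 42424 and 38956 and root 33017 and 35277. The tissues were thus apart at 0.5 h and within 1 log2 unit of each other before and after.

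Among those lower in root, AK107418 had 612 and 1212 in leaf and 35.2 and 54.1 in root at 0.5 h, a log2 difference of −4.30 ± 0.36 (SE, 2 arrays each, limma adjusted p = 3.82e-06). Both root arrays lay under the random feature, so the gene is given as higher in leaf by a log2 difference of at least 1.77. After 2 h it stood at 2467 and 2724 in root, and by 12 h it had come down to 546 and 840 there while leaf stood at 11165 and 8003. AK066068, described above, had 797 and 3762 in leaf against 266 and 162 in root at 0.5 h, a difference of −3.06 ± 0.56 (SE, 2 arrays each, limma adjusted p = 0.00169). Its root replicate 2 lay under the random feature, the difference was −1.94 without leaf 0.5 h replicate 2, and it was not called with only the 4 arrays of 0.5 h.

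Of the 27 called members, 4 had both arrays of the dimmer tissue under the random feature and 10 had 1 of them there. For those 4 the log2 difference is given only as a bound, from at least 0.86 to at least 1.80, and 1 of the bounds did not reach 1. Over the 22 called higher in root, the median difference between root and leaf was 1.25 at 0 h, 2.19 after 0.5 h, 0.98 after 2 h, 0.41 after 6 h and 0.19 after 12 h. Over the 5 called lower it was −1.89, −2.09, −1.84, −2.24 and −1.91 at the same times. Single genes departed from these medians. Of the 22, 13 were more than 1 higher in root at 0 h and 2 were so at 12 h, when their differences ran from −1.16 to 4.18, the last in AK107580, which was at 1.47 at 0 h. All 5 called lower were lower in root at each time, with differences from −5.06 to −1.34 at 0 h and from −3.80 to −0.44 at 12 h. The smallest at 12 h was that of AK066068, which began at −4.38. Its root values at 0 h, given above, lay near the random features of those arrays (161 and 146), so −4.38 is not an exact size. No bounds were taken for differences at 0 h. These courses are given without a test, since the other times were read by the rule. The called genes were also picked for a large difference at 0.5 h, so a larger median at that time is partly fixed by the choice.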

How the data were processed

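The authors labelled total RNA of each sample with Cy3, hybridised it to a rice array tiled over gene 3′ ends and condensed each gene's probes by RMA, per the labels and the study's methods. Each deposited value is a linear intensity, and log2 was taken here with no other normalization. A separate table of detection calls was not used, and a deposited table of probe pairs gave the number of probes. No values of the authors' own comparisons were used.

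The 6 control features were left out. Changes were differences of mean log2 intensities after raising values under 200 to 200. Root and leaf at 0.5 h were compared with limma 3.58.1 (R 4.3.3, lmFit and eBayes) over 10 groups and 20 arrays, with no floor, and p-values were adjusted by Benjamini-Hochberg over 27609 genes. On data simulated for this comparison over 27609 genes, 18 of 50 genes raised by 1.5 on the log2 scale, 14 of 50 lowered by 1.5, 40 of 50 raised by 3 and 37 of 50 lowered by 3 were called, and 4 of 27409 unchanged genes. Each simulated gene had 1 spread on all arrays. In the data far more genes differed, with 2578 called higher and 2025 lower in root, and the arrays of 0.5 h lay farther apart than those of other times. The simulated shares therefore need not hold for the data. With 2 arrays in a group, their number limits the precision, and p-values measure only the spread between these samples.

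The members, and the lists and rules used, were chosen with earlier results of these data known. At most 2 members were to be named by the size of their minimum, and other members named in the text were picked after their values were seen. Of the identifiers on the array 0 matched the RefSeq table (ASM3414082v1), so keyword lists and promoter motifs that had been planned could not be applied. The labels number the replicates without saying that a number marks a shared batch. Alternatives were floors of 100 and 400 or none, other normalizations, filters and priors, a replicate block, and leaving out single arrays.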

Additional observations from a re-analysis of the deposited data

Results flagged for a closer look

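At 0.5 h 4 members lay on opposite sides of 0 h in the 2 tissues, with both arrays apart from 0 h in each. The difference between the tissues' changes was not tested, because the 0 h arrays had been used to choose the genes. It is the log2 change in root minus that in leaf. AK119713 had changes of −0.75 in leaf and 3.79 in root, a difference of 4.54. AK120709 had −0.92 and 0.94, a difference of 1.86, with leaf going from 1654 and 2653 to 757 and 1614 and root from 2128 and 6529 to 7179 and 7135. Os03g0561400 had −0.31 and 1.23, a difference of 1.54. Os03g0388800 had 0.46 and −1.04, a difference of −1.5, with leaf going from 258 and 104 to 376 and 260 and root from 792 and 976 to 389 and 472. For all 4 genes the values at 0.5 h include leaf replicate 1 and root replicate 2, whose random features were raised, at 362 and 340. Os03g0388800 lay close to them, with 376 on that leaf array and 472 on that root array, and its leaf arrays were barely apart from 0 h (260 against 258). Its leaf change is a lower bound, since 1 array of 0 h was under 200. AK119713 also lay close to the random feature of leaf replicate 1, with 421 there. Its leaf arrays were barely apart from 0 h (421 against 426), as were those of AK120709 (1614 against 1654). That all 4 genes were above their 0 h levels in both tissues by 2 h was fixed by the rule.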

How the results depend on the processing

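The number of genes that met the condition and the number of the 150 chosen again stayed within 1.5 times of the main values under all floors and normalizations tried. With single arrays left out, 300 to 393 genes met the condition and 123 to 149 of the 150 were chosen again, and 87 were chosen whichever of the 16 arrays was left out. At 0.5 h the counts were less steady. With only the 4 arrays of 0.5 h in the fit, 7 members were higher and 1 lower in root, and over all genes 504 were higher and 690 lower in place of 2578 and 2025. With 1 array left out, 15 to 42 members were higher and 4 to 12 lower in root, and the counts of a change above 1 ran from 32 to 64 in leaf and from 64 to 77 in root. Without both arrays that had a raised random feature, an alternative chosen after seeing the data, 11 were lower in root and 64 had a leaf change above 1. Over all genes, 3986 were higher in root without leaf 0.5 h replicate 2, but only 1568 when replicate 1 of that group was dropped, and 1310 when root 0.5 h replicate 1 was. The causes were not tested. AK066068 was not called with only the 4 arrays of 0.5 h (limma adjusted p = 0.0673), and the other 4 genes named in that comparison were called in every setting.

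With the replicate number as a block, 27 members were higher and 5 lower in root, against 10.7% and 8.3% of all genes. Deviations of same-numbered arrays correlated by −0.16 between leaf and root at 0.5 h and by −0.16 to 0.72, with a median of 0.31, over 45 pairs of groups. The median was thus above 0, though the pair compared here was not. The main fit had no block because the labels name no shared batch, and whether the numbers pair the samples was not tested. With the numbers crossed between the tissues, an alternative chosen after seeing the data, 22 were higher and 5 lower, against 9.53% and 7.52% of all genes.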
